A study of Mus musculus with 10 samples.

Results

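Skeletal muscle reaches a mouse skin biopsy through the panniculus carnosus, the thin sheet of striated muscle under the dermal fat of the back. The 40 genes described here are markers of that muscle, chosen by symbol among the 24452 named genes of the count table. They comprise 10 contractile genes of fast fibres, 7 of slow fibres, 10 sarcomere and cytoskeleton genes used in both, 5 genes of calcium handling and excitation, 5 of energy metabolism and oxygen storage, and 3 myogenic transcription factors. All 40 were in the table, and 39 had enough counts to be tested. *Pax7*, the transcription factor of muscle stem cells, did not.

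RNA was sequenced from shaved, full-thickness, treated but non-tumoral back skin of 5 wild-type mice (WT) and 5 TTP delta ARE knock-in mice (KI, Zfp36ΔARE), all C57BL/6, with 1 library per mouse. The knock-in lacks an AU-rich instability motif of the *Zfp36* transcript, which encodes the mRNA-decay factor tristetraprolin, in every cell of the animal and not in muscle alone. Both groups had received 400 nmol of the mutagen DMBA once and then 10 nmol of the phorbol ester TPA per application, with 2 applications a week for 20 weeks, from an age of 7 weeks. No untreated skin enters the comparison, so each value describes skin under the same carcinogenesis protocol. *Zfp36* had 1824 to 2496 normalized counts in WT and 4196 to 6134 in KI libraries. It was higher in every KI library, a direction that the authors also report.

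A muscle fibre contracts when an action potential opens a calcium channel in its surface membrane (the product of *Cacna1s*), which opens the ryanodine receptor *Ryr1* in the sarcoplasmic reticulum. Calcium then binds troponin on the thin filament, myosin heads pull on actin, and the pump *Atp2a1* returns the calcium to its store. Fast and slow fibres build the same sarcomere from different paralogs of myosin, troponin and myosin-binding protein C. The paralogs present in a sample are a guide to its fibre types.

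The members lie in the mm10 (GRCm38) genome on many chromosomes. The 3 fast adult myosin heavy chain genes are neighbours on the plus strand of chromosome 11: *Myh2* from 67171027 to 67197517, *Myh1* from 67200052 to 67224575 and *Myh4* from 67238029 to 67260446. Of the troponin I pair, the fast gene *Tnni2* lies on chromosome 7 from 142441808 to 142444410 and the slow gene *Tnni1* on chromosome 1 from 135779434 to 135810989. The 250 bases before the RefSeq start are shown for *Myh4* and *Myh1*, whose shares varied most from library to library, and for *Tnni1*, which was the one member called higher in KI skin. Capitals mark an E-box (CANNTG, bound by myogenic basic helix-loop-helix factors), a TATA box (TATAAA), a MEF2 site or a CArG box (bound by serum response factor). All were searched on both strands.
*Myh4*, chr11:67237562-67237811, plus strand: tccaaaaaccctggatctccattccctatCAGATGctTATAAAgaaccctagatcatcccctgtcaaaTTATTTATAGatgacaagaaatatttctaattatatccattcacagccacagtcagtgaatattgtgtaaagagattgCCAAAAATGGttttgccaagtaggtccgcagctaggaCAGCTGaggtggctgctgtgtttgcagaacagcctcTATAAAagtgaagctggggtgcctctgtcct
*Myh1*, chr11:67199852-67200101, plus strand: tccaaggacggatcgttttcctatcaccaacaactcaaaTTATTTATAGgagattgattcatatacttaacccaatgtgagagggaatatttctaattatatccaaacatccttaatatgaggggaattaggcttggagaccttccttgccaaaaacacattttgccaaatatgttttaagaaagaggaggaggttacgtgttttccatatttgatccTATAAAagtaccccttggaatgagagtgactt
*Tnni1*, chr1:135799171-135799420, plus strand: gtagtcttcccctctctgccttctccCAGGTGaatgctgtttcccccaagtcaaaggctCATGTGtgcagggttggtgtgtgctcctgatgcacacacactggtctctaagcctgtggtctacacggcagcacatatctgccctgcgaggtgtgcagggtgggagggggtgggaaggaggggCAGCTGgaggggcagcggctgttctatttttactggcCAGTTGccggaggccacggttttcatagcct

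The *Myh4* window held 2 E-boxes, 221 and 67 bases before the start, and a CArG box 104 bases before it. The *Myh1* window held neither. Each had a MEF2 site, which overlaps a TATA box read on the other strand, and a TATA box 31 (*Myh4*) or 32 (*Myh1*) bases before the start. The longest run of bases common to both windows was 20 bases long and read aatatttctaattatatcca. The *Tnni1* window shown held 4 E-boxes and no match of the other 3 motifs. A further RefSeq start of *Tnni1* (window chr1:135799261-135799510, not shown) had 2 E-boxes and no match of the other 3. A promoter entry was found for 32 of the 40 members, with 39 starts in all. An E-box lay in 82.1% of these 39 windows against 66.2% of all 32851 windows of the same length, a MEF2 site in 12.8% against 2.92%, a CArG box in 12.8% against 1.47% and a TATA box in 15.4% against 12.4%. These are matches of letters and were not tested as binding sites.

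The 40 genes took a smaller part of the RNA in KI skin. They held 3.84%, 1.47%, 6.96%, 2.28% and 3.01% of all counts in WT replicates 1 to 5, and 1.11%, 1.13%, 1.69%, 0.818% and 1.14% in KI replicates 1 to 5. The means were 3.51% ± 2.12 in WT and 1.18% ± 0.318 in KI skin (SD, n = 5 each). WT replicate 3 stood highest and KI replicate 4 lowest, and the groups overlapped because WT replicate 2 lay below KI replicate 3. With keratin genes, the other listed hair genes and *Rn45s* left out of the total, the means were 3.72% ± 2.16 in WT and 1.33% ± 0.384 in KI skin. In bulk tissue, fewer muscle cells and less muscle RNA per cell cannot be told apart.

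**Figure D1:**
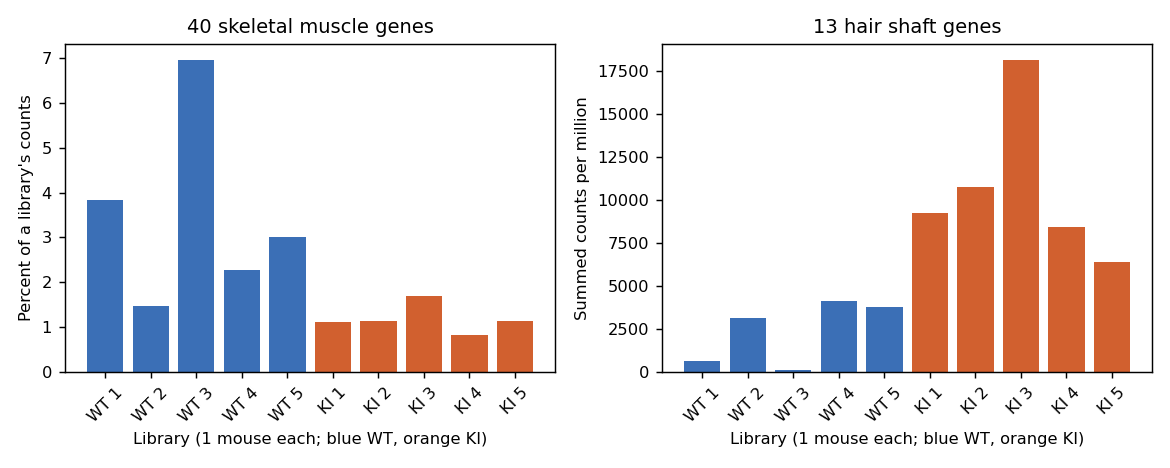
Left, the counts of the 40 skeletal muscle genes as a percent of all counts of each library. Right, the summed CPM of 13 hair shaft genes, where CPM is a count scaled to the size of its library. WT replicates 1 and 3 had the most muscle counts (3.84% and 6.96%) and the least hair shaft RNA (647 and 126 CPM).

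Of the 39 tested members, 30 were called lower in KI skin and 1, *Tnni1*, was called higher, where a call needs a fold change over 2 and an adjusted p under 0.05 (quasi-likelihood test of edgeR, Benjamini-Hochberg over all tested genes). Over all 15543 tested genes, 6.64% were called lower and 1.67% higher. The median log2 fold change was -1.39 over the members and 0.0076 over all tested genes. The 30 members called lower fell 2.12-fold (*Actn2*) to 4.20-fold (*Actn3*), with adjusted p-values from 0.0114 to 0.0371. *Tcap*, which encodes telethonin of the Z-disc, passed the test at a fold under 2 (1.95-fold lower, adjusted p = 0.0319). The 7 members that did not pass were *Myh1*, *Mb*, *Myh7*, *Myl2*, *Myl3*, *Tnnc1* and *Tnnt1*.

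The spread between mice was large in WT skin. The median coefficient of variation over the members was 58.5% in WT and 30.5% in KI skin, against 13.8% and 11.5% over all tested genes. WT replicate 3 had the highest value of all 10 libraries in 30 of the 30 members called lower, and WT replicate 2 was the lowest WT library in 27 of them. Within KI skin, replicate 3 was the highest in 28 and replicate 4 the lowest in 25. At least 4 of the 5 KI libraries lay below every WT library in 28 of the 30. These 30 were picked as lower in the same libraries, so this describes them and is not separate evidence.

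The groups did not overlap in only 6 members lower in KI skin, *Myh2*, *Mybpc1*, *Tpm2*, *Actn2*, *Myot* and *Myog*, and in *Tnni1* higher in KI skin. Over all tested genes, 11.9% had every KI library below every WT library and 11.2% had every KI library above. The count of members called lower rested in part on WT replicate 3. Without it, 16 members were called lower, where 3.91% of all tested genes were, and the median log2 fold change was -0.98. In that refit 27 members passed the test at any fold in either direction, as did 4177 of 15641 tested genes. With all 10 libraries, 32 members did. WT replicates 1 and 3 were the pair with the least hair shaft RNA and also with the most muscle counts (3.84% and 6.96%). Leaving out both also takes away the highest muscle values, so it is not a check of hair content alone. Without both, 2 members (*Atp2a1* and *Eno3*) were called lower where 2.11% of all tested genes were. At any fold in either direction 11 members passed the test, as did 15.9% of all tested genes, and the median was -0.72.

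**Figure D2:**
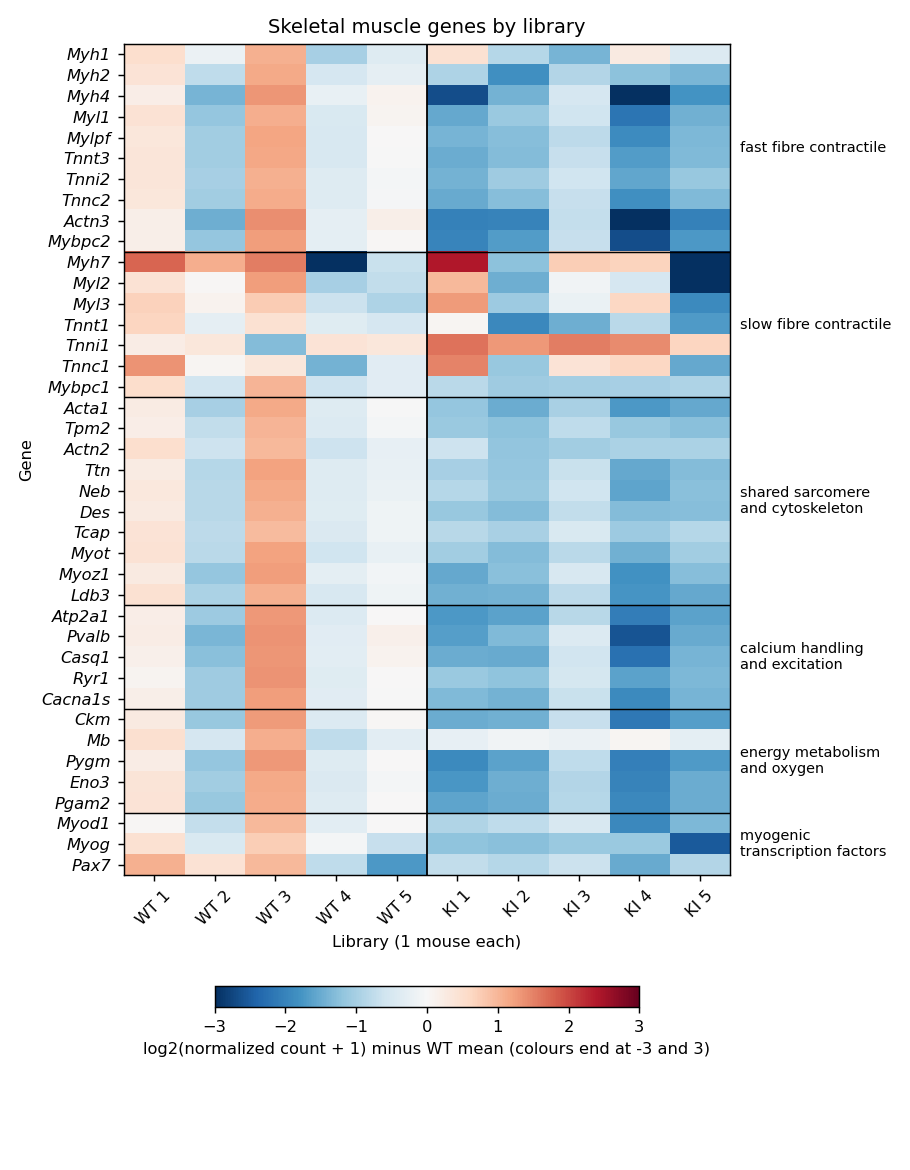
Each cell is the log2(normalized count + 1) of a gene in a library minus the mean of the 5 WT libraries (blue lower, red higher, colours ending at -3 and 3). The column of WT replicate 3 is red in every gene but *Tnni1*, and most genes are blue in the KI columns, least so in KI replicate 3. The slow fibre block differs from the rest in its row-to-row order.

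Several other cell types moved in the same libraries. In CPM, the 13 hair shaft genes summed to 647, 3149, 126, 4139 and 3766 in WT replicates 1 to 5 and to between 6387 and 18150 in KI libraries, and 4 of the 13 were called higher. The 9 inner root sheath genes ranged from 1510 to 26320 CPM in WT and from 27300 to 48540 in KI libraries, with 0 called by edgeR's test and 1 at an adjusted p under 0.05. All 10 macrophage markers were called lower (953.2 to 1902 CPM in WT, 401.4 to 637.4 in KI), as were 6 of 10 adipocyte markers (1932 to 3944 against 1345 to 1765). Of 10 endothelial markers 4 were called lower (230.6 to 490.0 CPM in WT, highest in WT replicate 3, and 145.5 to 189.3 in KI), and of 10 fibroblast markers 3 were (6395 to 13500 against 3631 to 10060). Of 8 basal keratinocyte markers 0 were called, and 3 passed as lower at a fold under 2 (8562 to 12990 CPM in WT, 7253 to 13680 in KI). Of 10 Schwann cell and myelin markers 2 were called lower (312.1 to 395.5 CPM in WT, 246.5 to 281.7 in KI). The part of these other tissues in the muscle values was not tested.

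The sex of the animals also differed between the groups. *Xist* had 16150 to 21080 normalized counts in the 5 WT libraries and in KI replicate 1, and at most 16.5 in KI replicates 2 to 5, which had the Y-linked transcripts. Genotype and sex were thus nearly confounded and cannot be told apart. KI replicate 1, the KI mouse with *Xist*, lay below all 5 WT libraries in 30 of the 30 members called lower, in some by little (*Actn2*, 2414 against 2431). This is 1 mouse, it took part in calling these 30, and most of them vary together. The count therefore does not separate sex from genotype.

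The heart genes *Myh6* and *Nppa* were at or near 0. *Myh6*, a cardiac myosin heavy chain, had 14 counts over all 10 libraries and *Nppa*, which encodes the atrial natriuretic peptide, had 3, where *Myh4* had 986942. Other genes of the cardiac list had more counts over the 10 libraries: *Tnnt2* 1799, *Tnni3* 679, *Nppb* 541 and *Actc1* 473. The 9 cardiac markers summed to between 12.0 and 17.3 CPM in any library. The 10 smooth muscle markers summed to 627.9 to 734.5 CPM in WT and 574.5 to 626.7 in KI libraries, and 3 of them were called lower. The 3 were *Myh11* (2.06-fold), *Cnn1* (2.05-fold) and *Synpo2* (2.1-fold). In these and in *Lmod1* every KI library lay below every WT library, as in 11.9% of all tested genes. In *Acta2*, the main actin of smooth muscle, the groups overlapped (3944 to 6180 normalized counts in WT, 3241 to 5267 in KI).

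The fast fibre genes carried the largest part of the muscle counts, and 9 of the 10 were called lower (median log2 fold change -1.47). *Myh4*, the heavy chain of the fastest fibres (type IIB), had 156900, 51790, 341200, 116500 and 145500 normalized counts in WT replicates 1 to 5 and 21720, 50660, 96750, 11610 and 39510 in KI replicates 1 to 5. Only KI replicate 3 reached into the WT range. The difference was 3.69-fold (log2 fold change -1.88, SE 0.60, adjusted p = 0.0363), and it lost its call when any 1 of 7 libraries was left out (highest adjusted p = 0.0909, without WT replicate 3), while its log2 fold change stayed between -2.40 and -1.42.

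*Myh1*, the heavy chain of type IIX fibres, did not pass the test. It had 37270, 23070, 55070, 13080 and 20120 normalized counts in WT replicates 1 to 5 and 36000, 14420, 9961, 31600 and 19800 in KI replicates 1 to 5. The groups overlapped, with WT replicates 1 and 3 above and KI replicate 3 below all libraries of the other group, and KI replicates 1 and 4 next below WT replicate 1 (log2 fold change -0.41, SE 0.44, adjusted p = 0.478). *Myh2*, of the oxidative fast fibres (type IIA), had 5370 to 20120 normalized counts in WT and 2539 to 4977 in KI libraries, with no overlap (2.61-fold lower, adjusted p = 0.0169).

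Corrected for transcript length, *Myh4* made up 76.0%, 64.4%, 81.9%, 85.6% and 84.0% of the 4 adult heavy chains in WT replicates 1 to 5. In KI replicates 1 to 5 its share was 34.5%, 74.9%, 86.6%, 24.6% and 62.8%. KI replicates 1 and 4 were thus set apart, with *Myh1* at 57.4% and 67.0%, while KI replicates 2 and 3 lay within or above the WT range and KI replicate 5 just below it. The ratio of *Myh4* to *Myh1* per length ran from 2.24 to 8.88 in WT and from 0.366 to 9.68 in KI libraries. These shares were looked at after the values were seen and were not tested. The 3 fast heavy chains are close in sequence, and how fragments that match several genes were counted is not given in the sources used here, so their split is uncertain. Summed into 1 row, they had 80230 to 416400 normalized counts in WT and 47130 to 111700 in KI libraries (2.88-fold lower, adjusted p = 0.0185).

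**Figure D3:**
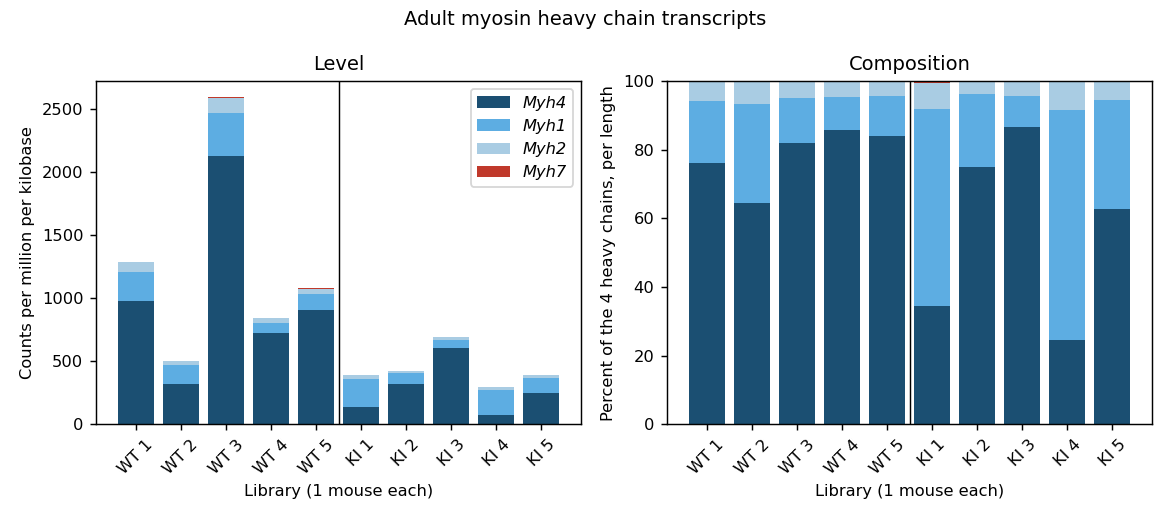
Stacked bars give the CPM per kilobase of the 4 adult myosin heavy chain genes in each library (left) and their composition in percent (right). *Myh4* was the largest part in every library but KI replicates 1 and 4, where *Myh1* was (57.4% and 67.0%), and the slow chain *Myh7* was at most 0.534%.

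*Tnnt3*, fast troponin T, had 66160, 25040, 115000, 37110 and 50680 normalized counts in WT replicates 1 to 5 and 18300, 20740, 31880, 16160 and 20540 in KI replicates 1 to 5. KI replicate 3 lay above WT replicate 2, and the other 4 KI libraries lay below all WT libraries (2.73-fold lower, SE 0.37 on the log2 scale, adjusted p = 0.0167). The fast light chains *Myl1* and *Mylpf*, the troponins *Tnni2* and *Tnnc2*, and fast myosin-binding protein C, *Mybpc2*, were 2.44- to 3.52-fold lower with adjusted p-values from 0.0158 to 0.0222. *Actn3*, the α-actinin found only in fast fibres, had the largest decrease of the 40 genes. Its normalized counts were 6421 to 46020 in WT and 1693 to 10650 in KI libraries, lowest in KI replicate 4 (adjusted p = 0.0202).

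The slow fibre genes had no common direction, and all but *Mybpc1* were scarce. Per length, *Mybpc1* had a mean of 88.7 CPM per kilobase in WT skin, and the other 6 had 0.591 (*Myl3*) to 7.87 (*Tnnt1*). Of the 7, *Mybpc1* was called lower, *Tnni1* was called higher, and 5 did not pass. *Mybpc1*, slow myosin-binding protein C, had 12200, 5654, 17040, 5507 and 6692 normalized counts in WT replicates 1 to 5 and 4842, 4008, 4164, 4240 and 4444 in KI replicates 1 to 5. Its KI values lay in a narrow band below all WT libraries (2.17-fold lower, adjusted p = 0.0202). *Mybpc1* followed the other members over the 10 libraries (Pearson correlation 0.94), more than *Myh7* did (0.30). Whether it marks slow fibres alone here was not tested.

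*Tnni1*, slow troponin I, went the other way. It had 95.8, 104, 32.9, 110 and 105 normalized counts in WT replicates 1 to 5 and 256, 205, 241, 223 and 131 in KI replicates 1 to 5. The groups did not overlap, and WT replicate 3, the library with the most muscle RNA, had the least *Tnni1* (2.35-fold higher in KI skin, log2 fold change 1.23, SE 0.29, adjusted p = 0.0133). WT replicate 3 was also the library with the least hair shaft RNA, and the part of hair follicles in this transcript was not tested. Without WT replicates 1 and 3 the log2 fold change was 0.99 (adjusted p = 0.0163), under the fold for a call.

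*Myh7*, the heavy chain of slow fibres, had 213, 133, 182, 3.88 and 39.2 normalized counts in WT replicates 1 to 5 and 337, 26.3, 104, 100.1 and 2.64 in KI replicates 1 to 5. It spanned about the same range in both groups, with WT replicate 4 and KI replicate 5 near 0 and KI replicate 1 highest (log2 fold change 0.025, SE 0.98, adjusted p = 0.987). The slow light chains *Myl2* and *Myl3* and slow troponin C, *Tnnc1*, rose and fell with *Myh7* from mouse to mouse. Over the 10 libraries, the Pearson correlation of their log2 CPM with those of *Myh7* was 0.85, 0.88 and 0.93 in that order, as a description of genes that share libraries. For *Tnni1* it was -0.017.

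*Myl2* had 41.7 to 201 normalized counts in WT and 1.32 to 164 in KI libraries, *Myl3* 6.19 to 22.0 and 2.64 to 32.2, and *Tnnc1* 5.82 to 45.1 and 5.28 to 50.2. With 2 to 67 raw counts of *Myl3* or *Tnnc1* per library and 1 to 219 of *Myl2*, none of the 3 passed the test (adjusted p = 0.586 for *Myl2*, 0.939 for *Myl3* and 0.871 for *Tnnc1*). *Tnnt1*, slow troponin T, had 322, 170, 283, 160 and 145 normalized counts in WT replicates 1 to 5 and 214, 52.5, 73.6, 118 and 62.0 in KI replicates 1 to 5. KI replicate 1 alone reached the WT range (log2 fold change -1.04, SE 0.40, adjusted p = 0.0648), and without that library *Tnnt1* passed (log2 fold change -1.51, adjusted p = 0.0175).

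**Figure D4:**
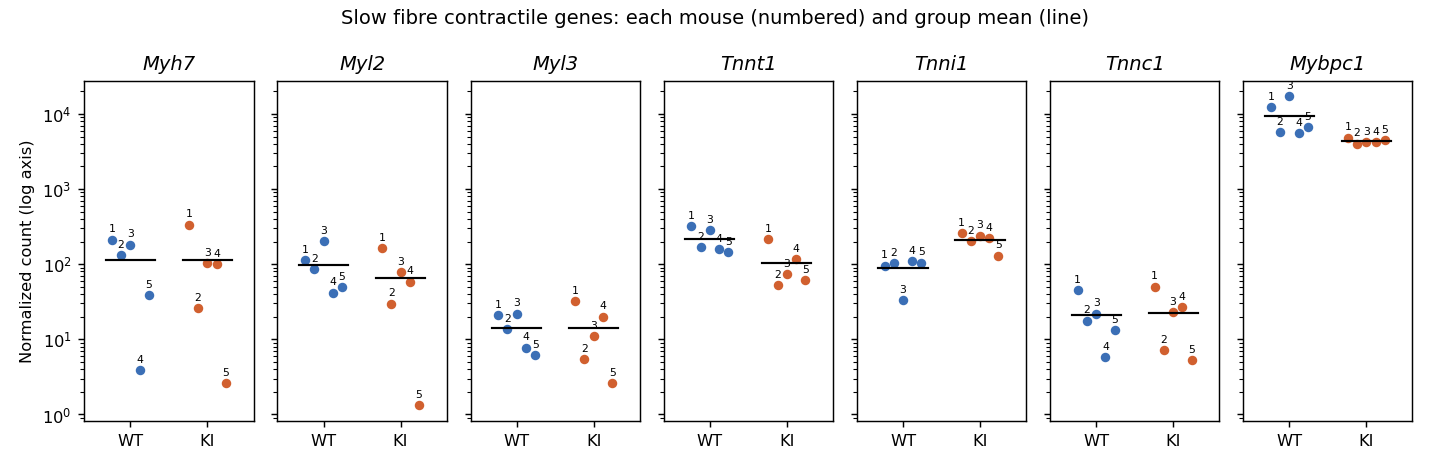
Normalized counts (log axis) of the 7 slow fibre contractile genes, with 1 numbered point per mouse and a line at each group's mean. *Myh7*, *Myl2*, *Myl3* and *Tnnc1* vary widely within both groups, with KI replicate 5 lowest, *Tnni1* is higher in all 5 KI libraries (131 to 256 against 32.9 to 110), and *Mybpc1* is far more abundant than the rest.

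A ratio of a fast to a slow paralog within a library does not depend on scaling. For *Tnni2* over *Tnni1* the log2 ratio was 8.13, 6.66, 10.4, 7.19 and 7.58 in WT replicates 1 to 5 and 4.95, 5.62, 5.84, 4.99 and 6.18 in KI replicates 1 to 5, with no overlap. The difference of -2.47 had p = 0.00794 in an exact permutation test, two-sided, the smallest that 5 mice against 5 allow, and 0.0476 after Benjamini-Hochberg adjustment over 6 ratios. It combines a fast gene that was lower with a slow gene that was higher. *Tnni1* ran against the other members over the 10 libraries (Pearson correlation -0.82), so this ratio alone does not describe fibre types. The tissue source of *Tnni1* was not tested. The other 5 ratios did not pass: the differences were -0.78 for *Mybpc2* over *Mybpc1* (exact permutation test, adjusted p = 0.19), -1.68 for *Myh4* over *Myh7*, -1.30 for *Tnnc2* over *Tnnc1*, -0.12 for *Tnnt3* over *Tnnt1* and -0.033 for *Mylpf* over *Myl2* (exact permutation test, adjusted p-values of 0.27 to 0.984).

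The genes of the sarcomere shared by both fibre types moved together, 9 of 10 being called lower and *Tcap* passing at a smaller fold (median log2 fold change -1.28). *Acta1*, skeletal α-actin of the thin filament, had 111900, 46920, 204400, 71910 and 93230 normalized counts in WT replicates 1 to 5 and 41560, 33430, 47920, 28530 and 32320 in KI replicates 1 to 5. KI replicate 3 lay just above WT replicate 2, the lowest WT library, and all other KI libraries lay below the WT range. *Acta1* was 2.88-fold lower (log2 fold change -1.52, SE 0.35, adjusted p = 0.0114). Per length, it was the most abundant of the 40 transcripts in both groups, with 2520 ± 1440 CPM per kilobase in WT and 877 ± 187 in KI skin (SD, n = 5 each).

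*Ttn*, the giant spring protein titin, had 48700, 22580, 94980, 31610 and 35300 normalized counts in WT replicates 1 to 5 and 20580, 18390, 25680, 14080 and 16770 in KI replicates 1 to 5. The groups overlapped in KI replicate 3 alone (2.44-fold lower, adjusted p = 0.021). *Tpm2*, a tropomyosin that covers actin's myosin sites, had 42860, 22050, 74920, 27720 and 35610 normalized counts in WT replicates 1 to 5 and 17060, 15740, 21750, 16740 and 15430 in KI replicates 1 to 5. All KI libraries lay below all WT libraries, KI replicate 3 by a small margin (2.34-fold lower, adjusted p = 0.0132). The Z-disc genes *Actn2*, *Myot*, *Myoz1* and *Ldb3*, the thin-filament ruler *Neb* and the intermediate filament *Des* were 2.12- to 2.88-fold lower, with adjusted p-values from 0.0128 to 0.026.

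All 5 genes of calcium handling and excitation were called lower (median log2 fold change -1.58). *Atp2a1*, the calcium pump of fast fibres, had 104300, 42880, 226200, 69050 and 91470 normalized counts in WT replicates 1 to 5 and 27860, 30070, 51240, 21860 and 30200 in KI replicates 1 to 5. KI replicate 3 was the one library to overlap with WT (3.31-fold lower, log2 fold change -1.73, SE 0.41, adjusted p = 0.0134). *Atp2a1* kept its call without WT replicates 1 and 3 (log2 fold change -1.08, adjusted p = 0.0456).

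*Pvalb*, the calcium buffer parvalbumin of fast fibres, had 18720, 6173, 40710, 12630 and 17640 normalized counts in WT replicates 1 to 5 and 5048, 6404, 11970, 2637 and 5632 in KI replicates 1 to 5. KI replicates 2 and 3 lay above WT replicate 2 (3.03-fold lower, adjusted p = 0.0338). *Ryr1* had 12630, 5667, 30240, 9173 and 11980 normalized counts in WT replicates 1 to 5 and 5483, 5186, 8274, 3896 and 4644 in KI replicates 1 to 5. KI replicate 3 alone lay above WT replicate 2 (2.54-fold lower, adjusted p = 0.0285). *Casq1*, the calcium-storing calsequestrin, and *Cacna1s* were lower as well (log2 fold change -1.58, adjusted p = 0.0233 and 2.82-fold, adjusted p = 0.0182). Of 10 refits that each left out 1 library, *Pvalb* lost its call in 7 (adjusted p up to 0.0842) and *Ryr1* in 6 (adjusted p up to 0.0632).

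Of the energy genes, 4 of 5 were called lower. *Ckm*, muscle creatine kinase, had 59030, 22240, 119000, 36970 and 50200 normalized counts in WT replicates 1 to 5 and 17630, 18220, 30410, 11210 and 15710 in KI replicates 1 to 5. KI replicate 3 lay within the WT range and the rest below it (3.08-fold lower, log2 fold change -1.63, SE 0.42, adjusted p = 0.0176). *Pygm*, which releases glucose units from glycogen, had 24940, 9575, 52210, 16450 and 21640 normalized counts in WT replicates 1 to 5 and 5700, 6962, 12540, 5132 and 6531 in KI replicates 1 to 5. Again KI replicate 3 was the one to overlap (3.39-fold lower, adjusted p = 0.0142).

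*Eno3*, the muscle enolase of glycolysis, had 19950, 7396, 33470, 11210 and 14520 normalized counts in WT replicates 1 to 5 and 4535, 5535, 8201, 3779 and 5387 in KI replicates 1 to 5. KI replicate 3 lay above WT replicate 2 and all other KI libraries below the WT range (3.15-fold lower, adjusted p = 0.0118). *Eno3* was, with *Atp2a1*, one of the 2 members still called without WT replicates 1 and 3 (log2 fold change -1.01, adjusted p = 0.0416). *Pgam2*, another glycolytic enzyme, was 3.07-fold lower (adjusted p = 0.0121).

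*Mb*, which encodes the oxygen store myoglobin, was named after its values were seen, because its KI values were not lower as a group. It had 6128, 3089, 9377, 2606 and 3522 normalized counts in WT replicates 1 to 5 and 3704, 4111, 3895, 4606 and 3606 in KI replicates 1 to 5. All KI libraries lay above WT replicates 2, 4 and 5, and below WT replicates 1 and 3 (log2 fold change -0.31, SE 0.32, adjusted p = 0.458). Without WT replicates 1 and 3 the log2 fold change was 0.37 (adjusted p = 0.0527). *Mb* overlaps *Apol6* in the annotation, and with the strand setting of the counting not given, reads of the pair may not be separated. The same limit holds for *Myl3* (148 counts over all libraries) with *Pth1r* (4359) and *Myl2* (854) with *Ccdc63* (295). It also holds for *Tnnc2* with *Ube2c*, *Atp2a1* with *Rabep2*, *Des* with *Gm15179* and *Ckm* with *A930016O22Rik*.

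The myogenic transcription factors were scarce. *Myod1*, which commits cells to the muscle lineage, had 39.6, 23.4, 76.9, 31.1 and 39.2 normalized counts in WT replicates 1 to 5 and 20.2, 22.6, 27.5, 9.35 and 14.5 in KI replicates 1 to 5. KI replicate 3 alone lay above the lowest WT library (2.17-fold lower, adjusted p = 0.0371), and the call was lost in 7 of 10 refits that left out 1 library (adjusted p up to 0.0748). *Myog*, needed for myoblasts to differentiate, had 37.8, 19.4, 46.4, 26.2 and 16.5 normalized counts in WT replicates 1 to 5 and 11.2, 10.9, 12.1, 12.0 and 3.96 in KI replicates 1 to 5. All KI libraries lay below all WT libraries (2.83-fold lower, adjusted p = 0.0136), on 3 to 41 raw counts per library. *Pax7* had 51 counts over the 10 libraries, 1 to 14 in each, and was not tested.

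**Figure D5:**
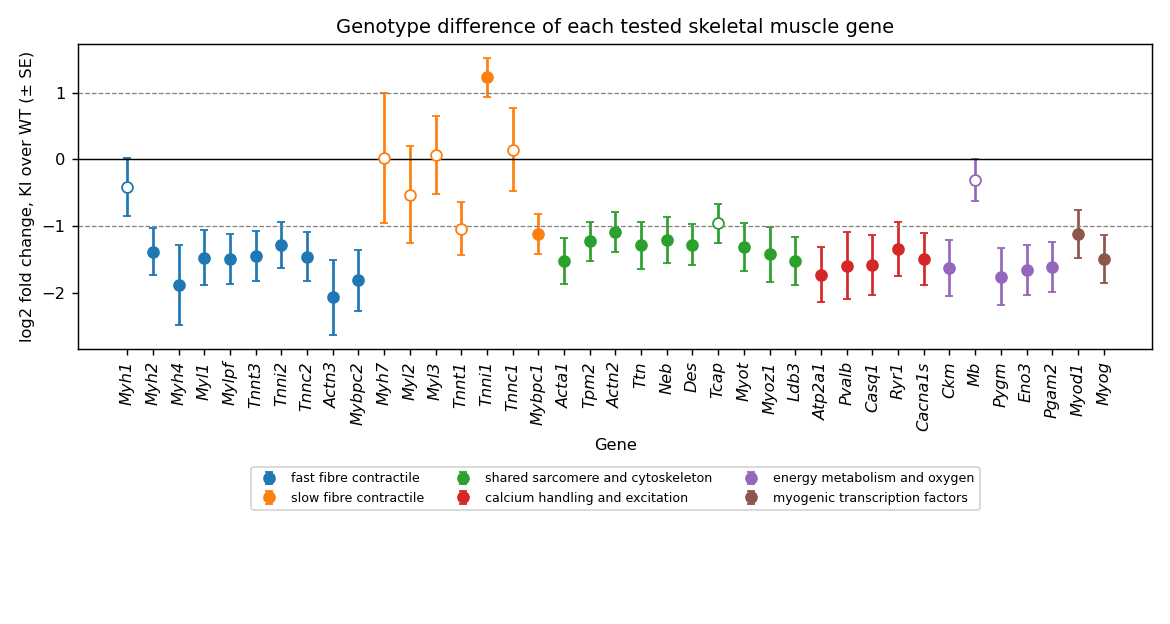
Log2 fold change of KI over WT with its standard error for the 39 tested genes, coloured by role (filled, called; open, not called; dashed lines at a 2-fold change). Of the 39 genes, 30 are filled below the lower line and *Tnni1* (1.23) is filled above the upper line. *Myh1*, *Mb*, *Tcap* and 5 slow fibre genes are open.

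Most members varied together from mouse to mouse. The Pearson correlation over the 10 libraries between a member's log2 CPM and the mean of the other members was above 0.9 for 29 of the 39, and was highest for *Ttn* and *Neb* (0.995 each). It was lowest for *Tnni1* (-0.82), *Tnnc1* (0.23), *Myl3* (0.27), *Myh7* (0.30) and *Myh1* (0.43). These values are descriptions, with genes sharing libraries and a scale. The 10 genes outside every list with the pattern most like the members were *Mypn*, *Ak1*, *Alpk2*, *Fbxo40*, *Hhatl*, *Speg*, *Rpl3l*, *Unc45b*, *Eef1a2* and *Trim54*, with correlations of 0.991 to 0.994 over the 10 libraries.

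Other genes of muscle were followed in 7 lists. Of 100 tested, 55 were called lower and 0 higher by edgeR's test, and *Myl6b* and *Gadd45a* passed it as higher at a fold under 2 (median log2 fold change -1.09). Of 17 genes of excitation and calcium, 15 were called lower, among them the calcium-store proteins *Srl* (2.55-fold, adjusted p = 0.0232) and *Tmem38a* (2.41-fold, adjusted p = 0.0193). Of 27 other sarcomere genes 16 were called lower. *Tpm1*, a tropomyosin that many cell types use, was not among them (log2 fold change -0.52, adjusted p = 0.0747).

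Of 16 energy genes, 11 were called lower, including the glycolytic enzyme *Pfkm* (2.69-fold, adjusted p = 0.0154). *Hk2*, a hexokinase of many tissues, did not pass (log2 fold change -0.30, adjusted p = 0.088). In the sarcolemma and dystrophin complex 5 of 13 were called lower and 11 passed the test as lower at any fold, as did 19.1% of all tested genes. Among them *Lama2*, of the basal lamina, fell 1.69-fold (adjusted p = 0.0112), while *Dag1*, of many epithelia too, had a log2 fold change of -0.11 (adjusted p = 0.198).

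Of 8 tested genes of the neuromuscular junction, 2 were called lower, the acetylcholine receptor subunits *Chrna1* (3.07-fold, adjusted p = 0.0049) and *Chrne* (2.70-fold). *Chrna1* had 58.8 to 115 normalized counts in WT and 19.0 to 37.5 in KI libraries, with no overlap. *Ache* passed at a smaller fold (1.51-fold lower, adjusted p = 0.0398), and *Chrnb1* did not pass (log2 fold change -0.43, adjusted p = 0.0837). *Chrng*, the fetal receptor subunit, had 1 count in all 10 libraries.

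Of 11 tested myogenic and growth genes, 5 were called lower, among them *Myf6*, the myogenic factor of mature fibres (2.91-fold, adjusted p = 0.019). The transcription factor *Mef2a* fell 1.38-fold (adjusted p = 0.011), and *Mef2d* did not pass (log2 fold change -0.08, adjusted p = 0.438). Of 8 genes linked to atrophy or denervation, *Trim63*, a ubiquitin ligase of the sarcomere, was called lower (2.44-fold, adjusted p = 0.0152). *Fbxo32* (log2 fold change -0.35, adjusted p = 0.212) and *Runx1* (0.10, adjusted p = 0.73) did not pass.

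Beside *Tnni1*, 2 contractile genes outside the 40 were higher in KI skin at a fold under 2, without overlap. *Myl6b*, a light chain of slow muscle and of non-muscle cells, had 81.8 to 133 normalized counts in WT and 163 to 217 in KI libraries (log2 fold change 0.77, adjusted p = 0.00844). *Tnnt2*, cardiac troponin T, had 103 to 176 and 206 to 227 (log2 fold change 0.56, adjusted p = 0.0144). In both, as in *Tnni1*, WT replicate 3 was the lowest library. *Actc1*, cardiac actin, did not share this pattern and had 19.4 to 142 normalized counts in WT and 8.01 to 45.02 in KI libraries (3.78-fold lower, adjusted p = 0.0272).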

How the data were processed

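RNA of treated, non-tumoral back skin from 5 WT and 5 KI mice was sequenced. Per the labels and the methods, the authors mapped paired-end reads to mm10 with STAR 2.5.2b after dropping those whose mean quality was below 20, and deposited raw counts of fragments per gene from featureCounts (Subread 1.5.0-p1), unnormalized, which they tested with DESeq2. The handling of fragments matching several genes and the strand setting are not given in the sources used here. Counts per library ran from 19595024 to 36419553. Rows without a gene name (2) held 7.38e-05% of the counts and were left out. No pair of libraries of one group agreed within sampling noise.

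TMM factors, the filterByExpr filter and the fit came from edgeR 4.0.16 (R 4.3.3), with a robust quasi-likelihood model that held genotype as its only term and Benjamini-Hochberg adjustment over 15543 genes. A gene was called at an adjusted p under 0.05 and a fold over 2. The script was tested on simulated data. Normalized counts are counts divided by a library's effective (TMM) size and set to the mean size of the 10, and SE is that of the log2 fold change. Fast-to-slow ratios took counts plus 0.5 and an exact permutation test, two-sided. The litter or cage of each mouse is not labelled, so p-values measure the spread between these mice. Levels per kilobase used the length column of the deposited table.

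The members and all lists were chosen with earlier results of these data known, so no count over a list is independent evidence. Values for every library are given for up to 3 members of each role with the most counts, for the myogenic factors and for members against their role's majority. Of other muscle lists up to 2 members with the most counts are named, except 1 gene that is not reported here. *Actn3*, *Mb*, *Chrna1*, *Chrne*, *Chrng*, *Myf6*, *Trim63*, *Csrp3*, *Ankrd1*, *Ankrd2*, *Myh3*, *Myh8*, *Myl6b*, *Tnnt2* and *Actc1* were added after their values were seen. Alternatives were DESeq2 1.42.0, limma-voom (limma 3.58.1), glmTreat, 3 scalings, 2 filters, non-robust dispersion, a replicate block and left-out libraries. Summing the 3 fast heavy chains was added after the data were seen. Promoters are RefSeq's on GRCm38.p6, and no entry was found for *Tnnt3*, *Tnni2*, *Actn3*, *Neb*, *Tcap*, *Myot*, *Myoz1* and *Myod1*. Coordinates are GENCODE's on GRCm38.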

Additional observations from a re-analysis of the deposited data

Results flagged for a closer look

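In 8 of 94 groups of 5 libraries checked gene by gene, 1 library stood apart from the other 4 by more than Dixon's 95% limit, where about 4.7 would by chance (about 1 in 20 groups). KI replicate 3 was the high one in 5 of them: *Tpm2* (21700 normalized counts against 15400 to 17100 in the other KI libraries), *Des* (6380 against 4290 to 4850), *Ldb3* (3670 against 1860 to 2350), *Atp2a1* (51200 against 21900 to 30200) and *Pygm* (12500 against 5130 to 6960). WT replicate 3 was the low one in *Tnni1* (32.9 against 95.8 to 110) and the high one in *Ryr1* (30200 against 5670 to 12600). KI replicate 5 was the low one in *Myog* (3.96 against 10.9 to 12.1). The 5 flags of KI replicate 3 are in genes that vary together, so they are not separate events. Their cause was not tested.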

How the results depend on the processing

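The count of members called lower (30) was 28 to 31 with DESeq2, limma-voom, each scaling, each filter, non-robust dispersion and the replicate block, and *Tnni1* stayed the 1 member called higher. Against a fold of 2 (glmTreat), 0 genes and 0 members were called in either direction, with 577 genes and 18 members at an unadjusted p under 0.05. Leaving out each library in turn gave 839 to 1521 called genes, 16 to 31 members called lower, 1 called higher, and a median log2 fold change of -1.55 to -0.98. The lowest came without WT replicate 3, and 20 members were called without KI replicate 2. Without WT replicates 1 and 3 together, 526 genes, 2 members lower and 0 higher were called, the median was -0.72 and the *Tnni2* to *Tnni1* difference was -1.63 (adjusted p = 0.214 in the exact permutation test, whose lowest possible p with 3 and 5 mice is 0.0357, so 1 ratio alone could not pass). The causes were not tested.

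Leaving out each library, that ratio difference ran from -2.80 to -1.88, each at the lowest p that the exact permutation test can reach with 4 and 5 mice (0.0159). For 1 ratio alone among 6 this adjusts to 0.0952, and the threshold was passed without KI replicate 3 (0.0476), where *Mybpc2* over *Mybpc1* was also at the smallest p. *Mybpc2* over *Mybpc1* ran from -1.06 (without KI replicate 3) to -0.56. *Tnnt3* over *Tnnt1* turned positive in some refits (-0.35 to 0.24, and 0.017 without WT replicates 1 and 3), as did *Mylpf* over *Myl2* (-1.06 to 0.55). Over the 39 members, 816 refits gave 673 with the same direction and side of the threshold, 115 weaker, 10 stronger and 18 reversed. The reversed were all in members that had not passed: *Myh7* (-0.12 with limma-voom, -0.033 with upper-quartile scaling, and -0.98 to 0.38 over left-out libraries), *Myl3* (-0.20 with limma-voom, -0.55 to 0.30), *Tnnc1* (-0.44 to 0.65), *Mb* (-0.47 to 0.054, and 0.37 without WT replicates 1 and 3), *Myl2* (0.19) and *Myh1* (0.25), both without WT replicates 1 and 3.

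The replicate number as a block called 983 genes and 29 members lower (median -1.25), and gave *Myh7* -0.33 and *Myl3* -0.14. *Tnni2* over *Tnni1* kept -2.47 with an exact sign-flip p of 0.0625, the smallest that 5 pairs allow (adjusted 0.375). Same-numbered libraries did not deviate together (correlations of -0.192 to 0.0851), and differently numbered ones ran from -0.41 to 0.361. Litter and cage are not labelled, so whether the numbers pair the mice cannot be told from these values. *Pax7* had too few counts to be tested, and the split of the fast heavy chains is limited by their similarity.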

Other observations

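Of the 8 genes listed for atrophy or denervation, *Csrp3* and *Ankrd1*, picked after their values were seen, had their highest value in KI replicate 1. *Ankrd2*, of the same list, did not, with 188 normalized counts there and 348 in WT replicate 1. The rest of the list was highest in other libraries as well. *Csrp3*, muscle LIM protein, had 1287 normalized counts in KI replicate 1, against 295 to 557 in the other KI libraries and 342.5 to 863 in WT. *Ankrd1* had 74.2 against 6.34 to 29.7 in the other KI libraries and 4.13 to 15.9 in WT. Neither passed edgeR's test between genotypes (adjusted p = 0.877 and 0.144). *Myh7*, *Myl3*, *Tnnc1* and *Tnni1* were also highest in KI replicate 1, the one KI mouse with *Xist*. The slow fibre genes *Myl2* and *Mybpc1* were highest in WT replicate 3 and *Tnnt1* in WT replicate 1. *Myh8* and *Myh3*, the perinatal and embryonic heavy chains, were scarce, with 414 and 47 counts over all libraries.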
